A study of Homo sapiens with 12 samples.

Results

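The genes described here encode the eukaryotic translation initiation factors and elongation factors, followed at the RNA level in CUTLL1. This established human line comes from a T-cell acute lymphoblastic leukaemia and carries a translocated NOTCH1 gene whose product is always active. Members were the protein-coding genes whose symbol, mapped from the Ensembl identifier, begins with EIF and a digit from 1 to 6 or with EEF and a 1 or 2, leaving out EIF1AY, with a value of at least 10 in 3 libraries. This gave 63 genes, of 68 that match by symbol and of 19281 genes that pass the same minimum. The 12 libraries form 4 groups of 3 by their labels, which are solvent (DMSO) for 12 h, 1 µM Compound E for 12 h, DMSO for 48 h and 1 µM Compound E for 48 h. All came from the same line in serum-containing medium. Compound E inhibits gamma-secretase (GSI), the protease that frees the active intracellular part of NOTCH1. Poly-A RNA was sequenced, and each value is a normalised read count, that is, reads per gene over the library's size factor.

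Translation starts when the eIF2 complex, loaded with GTP and initiator tRNA, joins the small ribosomal subunit together with eIF3, eIF1, eIF1A and eIF5. The eIF4 factors bind the cap of a messenger RNA and unwind its leader, the complex scans to a start codon, and eIF5B joins the large subunit. In elongation eEF1A brings aminoacyl-tRNA to the ribosome, eEF1B recharges eEF1A with GTP, and eEF2 moves the ribosome along. Several of these messages, those of eEF1A and eEF2 among them, belong to the TOP class, which begins with a C and a run of pyrimidines and whose translation follows mTORC1 signalling.

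Recovered depth ranged from 73939612 to 160702764 reads per library, and the members took between 2.03% and 2.56% of the reads. NRARP, a direct NOTCH1 target, had values of 36766 to 49346 in the libraries labelled DMSO 12 h, 16831 to 25383 in GSI 12 h, 2339.9 to 3564 in DMSO 48 h and 1333 to 1995 in GSI 48 h. It thus differed more between the time labels than between the treatment labels, and DTX1, another target, had the same order of groups (76829 to 94663, 48204 to 70586, 10524 to 12790.0 and 7426 to 9186). Whether the GSI 12 h and DMSO 48 h labels are as intended cannot be told apart from these values, so every direction below is drawn from the labels. All 12 T-lineage markers on the list (such as CD3E, LCK and PTCRA) had a median of at least 10, against 1 of 5 B-lineage, 2 of 5 myeloid and 0 of 5 stromal or epithelial markers. NOTCH1 itself is on the T-lineage list and had its highest median (184900, with libraries from 112600 to 207400). The summed level of the T-lineage markers thus weighs NOTCH1 most. This sum ranged from 517300 to 567700 in DMSO 12 h and from 389000 to 427500 in GSI 12 h. At 48 h it ranged from 480800 to 535800 in DMSO and from 407000 to 465300 in GSI. This fall ran beside the falls described below, and its part in them was not tested. Both GSI libraries numbered 2 lay closest to the DMSO libraries. The main counts are also given without them, but as these are the treated libraries most like the controls, leaving them out widens the difference by construction and supports no call. In bulk RNA, fewer cells of a type and less RNA per cell cannot be told apart. Nothing in the labels says that the 3 libraries of a group are separate cultures, and the spread behind each p-value may therefore be technical.

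At 12 h, 24 of the 63 factors fell and 0 rose in GSI-labelled against DMSO-labelled libraries (limma on log2(value + 1), p adjusted by Benjamini and Hochberg's method across the 19281 genes, threshold 0.05). Of all genes tested, 21.5% were called, 11.4% as lower and 10.1% as higher, so the share of factors that fell (38.1%) stood above the background and the share that rose stood below it. An unadjusted p under 0.05 was reached by 33 factors. Their median log2 fold change was −0.23, against 0.00 over all genes, and 22 of the 63 had a positive value. The largest falls were those of EIF5 (−0.86), EIF4G1 (−0.72), EIF5A (−0.71), EIF3J (−0.69) and EIF1AX (−0.68). In 26 factors all GSI 12 h libraries lay below all DMSO 12 h libraries, and in 5 they lay above, against 19.3% and 17.1% of all genes. Without both GSI libraries numbered 2, 29 factors fell and 3 rose, where 3115 of the 19281 genes fell and 2628 rose. With upper-quartile scaling the split was 19 lower and 3 higher, and over all genes it moved from 2201 lower and 1943 higher to 1585 and 2536. EIF5, EIF4G1, EIF4G2, EIF2S1, EIF3A, EIF3B, EIF3J and EIF1AX were called under all 23 alternatives. Single libraries carried much of the count, which was 9 without DMSO 12 h library 2, 9 without GSI 12 h library 1 and 11 without GSI 12 h library 3.

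At 48 h, 11 factors fell and 0 rose, which is 17.5% of the 63 against 5.35% of all genes called lower, 4.33% called higher and 9.68% in all. Those were EIF5, EIF4G1, EIF4E2, EIF4A3, EIF2S1, EIF4G2, EIF6, EIF1AD, EIF3B, EIF2AK2 and EIF3A, and each of the 11 was also called at 12 h. They make up 45.8% of the 12 h calls, and all 24 of those calls had a negative value at 48 h. The 2 times do not share libraries, but 1 fit with a shared spread gave both sets of calls. Same-numbered libraries also deviated together across the times (correlations of 0.545 to 0.612 in DMSO and 0.4 to 0.545 in GSI). The calls at the 2 times are thus not independent. The median of the factors was −0.16. In 25 factors the groups did not overlap with GSI lower, and in 6 with GSI higher, against 18.5% and 16.9% of all genes. The same-numbered libraries of these groups deviated together only weakly (correlations of 0.103 to 0.157), so the block results at 48 h rest on a weak pairing. With the library number as a block 25 factors fell and 4 rose (EIF3L, EIF1B, EEF1AKMT3 and EEF1A2). With the same block 2989 of the 19281 genes fell and 2272 rose. Without both GSI libraries numbered 2, 21 fell and 2 rose, where 2299 of all genes fell and 1743 rose. With upper-quartile scaling 5 fell and 1 rose, and over all genes the split turned from 1032 lower and 834 higher to 682 and 1220. The count was 0 when any of the DMSO 48 h libraries, GSI 48 h library 1 or GSI 48 h library 3 was left out, and 21 without GSI 48 h library 2.

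**Figure D1:**
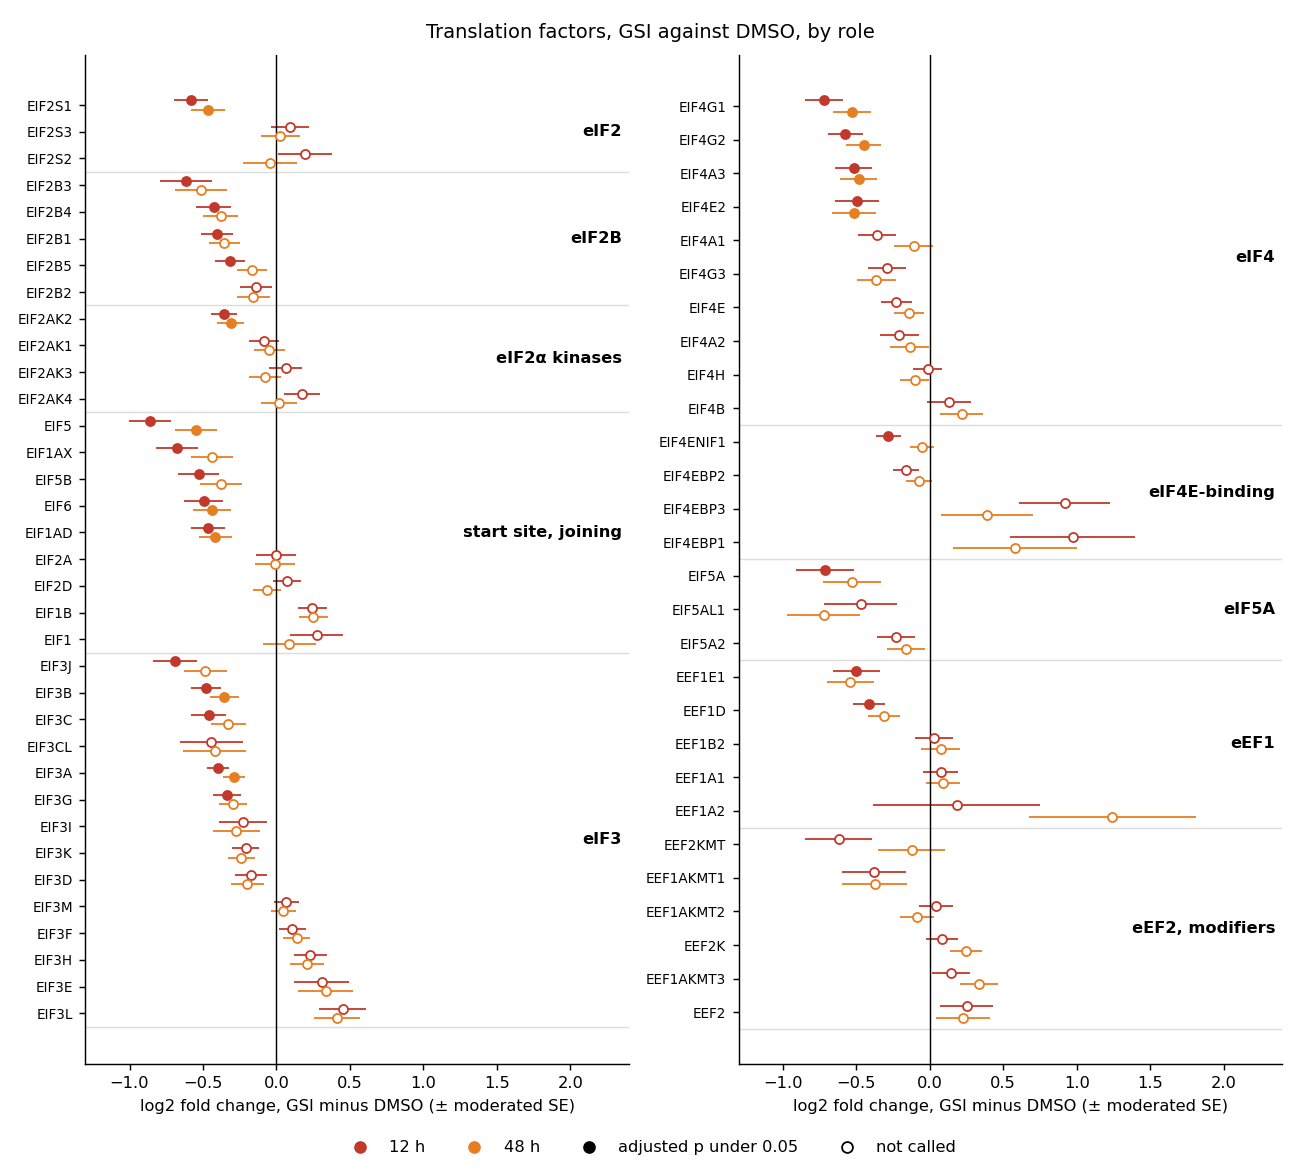
Log2 fold change of each of the 63 factors (x axis, log2(value + 1) scale, GSI minus DMSO labels) at 12 h (red) and 48 h (orange), grouped by role, with bars of 1 moderated SE. Filled points have an adjusted p under 0.05. All 24 filled points at 12 h and all 11 at 48 h lie left of 0, while EEF2, EEF1A1, EEF1B2 and 5 of the 14 eIF3 genes lie right of it at both times.

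The fall was uneven. The factors that were not called included EEF1A1 and EEF2, which had the highest mean counts. EIF4G2, with the next highest mean count (132353, against 142360 for EEF2), fell at both times. Of the factors on a list of TOP messages (EEF1A1, EEF1A2, EEF1B2, EEF1D, EEF2, EIF3E, EIF3F and EIF3H), 7 of 8 had a positive value at each time, with a median of 0.15 at 12 h and 0.17 at 48 h. EEF1D fell at 12 h and none of the 8 was called at 48 h without the block, whereas with it EEF1D was lower and EEF1A2 higher (block adjusted p = 0.04 and 0.0474). Of the 55 other factors, 23 fell at 12 h (median −0.29) and 11 at 48 h (median −0.20), beside 11.4% and 5.35% of all genes. The median of the TOP list stayed above 0 under each alternative run, from 0.04 to 0.23 at 12 h and from 0.04 to 0.26 at 48 h. The lower ends of these ranges are those without GSI library 3 of the time in question. The medians are a description, and no test compared the lists.

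**Figure D2:**
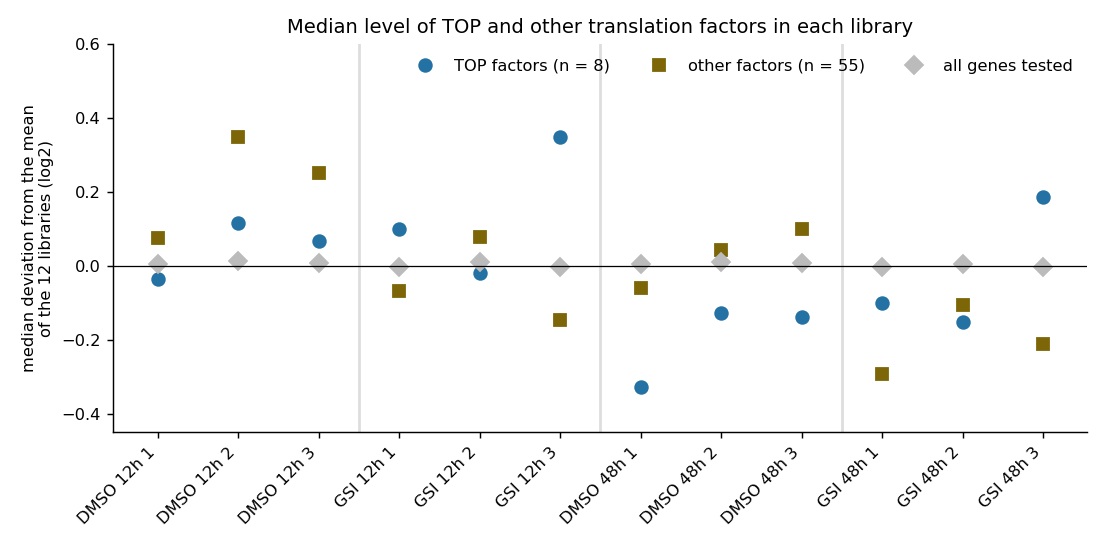
Median deviation of 3 gene groups from their mean over the 12 libraries (y axis, log2), by library (x axis). The TOP factors (blue, n = 8) stand above the other factors (brown, n = 55) in the GSI libraries numbered 1 and 3 at both times, most in GSI 12 h library 3 (0.35 against −0.15), and below them in all 6 DMSO libraries, while all genes tested (grey) stay near 0.

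The bases at the annotated transcription starts were read from RefSeq for build GRCh38.p14, because a pyrimidine run there marks the TOP class. Windows from 250 bases before to 50 after a start were given for 49 of the 63 members (63 windows), and 14 members had none there. A start with a C at the first transcribed base and at least 4 further bases that are each C or T was found in 12 member windows (19.0%), 1 for each of 12 members, against 4.07% of all 35116 windows. Shown here are 30 bases, 10 before the start and 20 from it, with the pyrimidine run in capitals. They are given for 5 members with such a start, none of them called, and then for 3 members that fell at 12 h and have 1 annotated start each. All 5 had positive values at 12 h. EEF1B2 has 2 annotated starts, and only the 1 with such a run is shown. Not shown are, among others, EIF3K (−0.21), EIF4A2 (−0.21) and EIF3D (−0.17), which also have such a start. Uncalled members with another start, such as EIF1 (0.27) and EIF1B (0.24), are not shown either.
EEF1A1 (chr6:73521013-73521042, minus strand): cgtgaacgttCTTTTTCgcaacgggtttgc
EEF2 (chr19:3985444-3985473, minus strand): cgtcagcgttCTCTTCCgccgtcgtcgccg
EEF1B2 (chr2:206159885-206159914, plus strand): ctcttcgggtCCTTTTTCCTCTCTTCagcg
EIF3F (chr11:7987327-7987356, plus strand): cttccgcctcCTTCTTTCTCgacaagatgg
EIF4B (chr12:53006446-53006475, plus strand): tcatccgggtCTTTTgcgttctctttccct
EIF2S1 (chr14:67360318-67360347, plus strand): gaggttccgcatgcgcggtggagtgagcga
EIF1AX (chrX:20141819-20141848, minus strand): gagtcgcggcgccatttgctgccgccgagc
EIF3J (chr15:44537137-44537166, plus strand): ccgccgtgctaactcctcgctagctctccc

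None of the 12 members with a pyrimidine start was called at 12 or 48 h, whereas 21 of the 37 members with another annotated start fell at 12 h and 10 at 48 h. The 12 were EEF1A1, EEF1B2, EEF2, EIF2A, EIF2D, EIF2S3, EIF3D, EIF3F, EIF3K, EIF3M, EIF4A2 and EIF4B. Their fold changes ran from −0.21 to 0.25 at 12 h, with a median of 0.07, and from −0.24 to 0.22 at 48 h, with a median of 0.04. The other 37 had medians of −0.41 and −0.35. Of all genes tested, 21.5% were called at 12 h (11.4% as lower) and 9.68% at 48 h (5.35% as lower). With only 12 genes, having none called is not far from these shares at either time. EEF1D, the gene of the TOP list that fell, has no window and is in neither class. With the library number as a block, EIF3K was lower at 48 h (block adjusted p = 0.0269), and of the 37, 21 fell and 1 rose. Over the 19281 genes, 2989 fell and 2272 rose with this block. Of the 12, 4 are also on the TOP list and 8 are not. The classes share no test, since members are not replicates, and the start used in CUTLL1 was not measured.

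**Figure D3:**
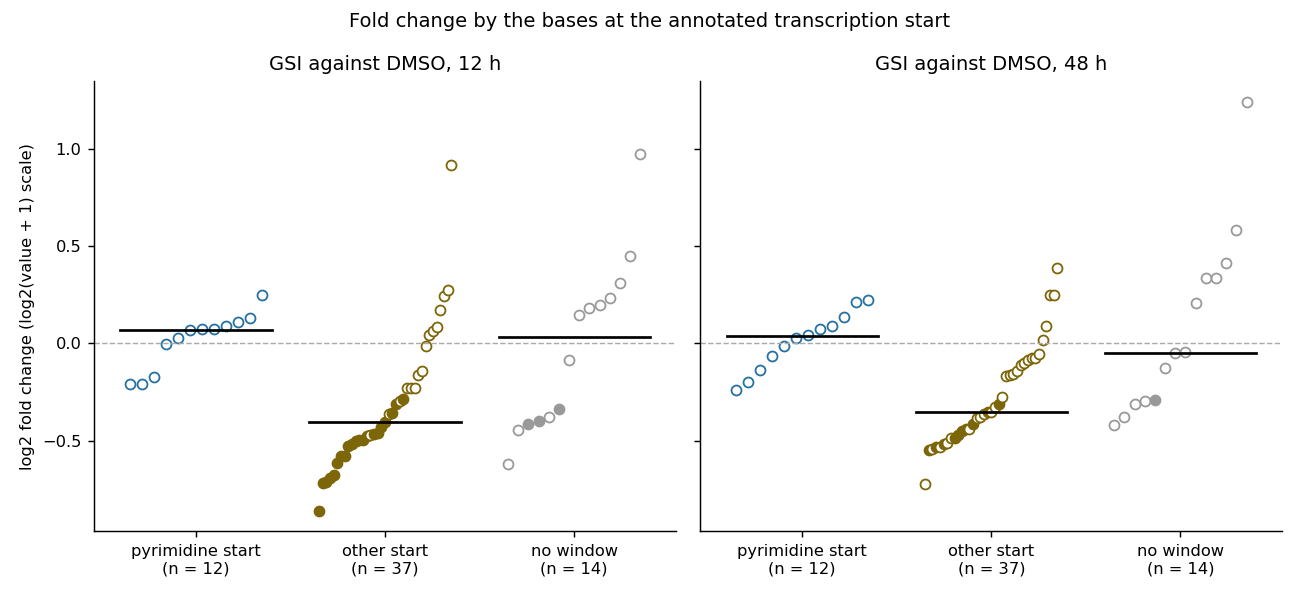
Log2 fold change (y axis, log2(value + 1) scale) of each member at 12 h (left) and 48 h (right), by the bases at its annotated start (x axis). Filled points have an adjusted p under 0.05 and bars are medians. No point of the pyrimidine-start class (n = 12) is filled, against 21 of 37 in the class with another start at 12 h.

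A second motif was read in the same windows because it is the classical binding sequence of MYC, a transcription factor known to activate genes of protein synthesis. CACGTG, which reads the same on both strands, was in 13 of the 63 member windows (20.6%), 1 for each of 13 members, and in 7.26% of all windows. Of these 13 members 4 fell at 12 h (EIF4G1, EIF2B3, EIF4A3 and EIF2AK2; median of the 13, −0.21), and of the 36 members without it 17 fell (median −0.30). At 48 h the counts were 3 of 13 and 7 of 36. Of all genes, 11.4% were called lower at 12 h and 5.35% at 48 h. EIF4E and EIF5A2 (both −0.23 at 12 h) hold the motif 2 times in a window and were called at neither time. The window of EIF4G1 (chr3:184314446-184314555, plus strand) is shown because EIF4G1 had the largest fall of the 13 and also holds the motif 2 times, 144 and 67 bases before a start.
EIF4G1: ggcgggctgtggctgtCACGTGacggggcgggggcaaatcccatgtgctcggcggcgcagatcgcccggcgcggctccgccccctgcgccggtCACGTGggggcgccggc
A match is neither a measured site nor a cause.

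The factors that select the start codon and join the subunits held the member with the largest fall. EIF5 (ENSG00000100664), which triggers GTP hydrolysis by eIF2 at the start codon, had 60702, 69817 and 64278 in the DMSO 12 h libraries and 32422, 44762 and 31375 in GSI 12 h. All 3 GSI values lay below the DMSO values (log2 fold change −0.86 ± 0.14 SE, adjusted p = 0.00316), and the mean fell by 44.3%. At 48 h its values were 54564, 60248 and 55743 in DMSO and 36118, 47425 and 34284 in GSI (log2 fold change −0.55 ± 0.14 SE, adjusted p = 0.0322). GSI library 2 was the highest of its group at both times. Of all genes, 11.4% were called lower at 12 h and 5.35% at 48 h. Of the 9 genes of this group 5 fell at 12 h, namely EIF5, EIF1AX (−0.68), which encodes the scanning factor eIF1A, EIF5B (−0.53), the GTPase of subunit joining, EIF6 (−0.50), which keeps the large subunit from joining too early, and EIF1AD (−0.47). At 48 h EIF5, EIF6 (log2 fold change −0.44 ± 0.13 SE, adjusted p = 0.049986) and EIF1AD (−0.42) fell, and with the block EIF1AX and EIF5B did too (block adjusted p = 0.00381 and 0.0176). The exceptions were EIF1, the gatekeeper of start codon choice (0.27, adjusted p = 0.291), its paralogue EIF1B (0.24, 0.0926), EIF2A (−0.00) and EIF2D (0.07). EIF1B lay higher in all GSI than in all DMSO libraries at each time, and at 48 h its block adjusted p was 0.0139.

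In the cap-binding and helicase group, 4 of 10 genes fell at 12 h and the same 4 at 48 h. The shares of all genes called lower were 11.4% and 5.35%. EIF4G1 (ENSG00000114867), the scaffold that joins the cap-binding protein, the helicase and eIF3, had 61000.0, 75150.4 and 73198 in DMSO 12 h and 40063, 52118 and 36112 in GSI 12 h (log2 fold change −0.72 ± 0.13 SE, adjusted p = 0.0041). At 48 h the values were 49834, 50922 and 56981 and 33508, 40344 and 35425 (log2 fold change −0.53 ± 0.13 SE, adjusted p = 0.0277), so the groups did not overlap at either time. EIF4G2, a scaffold of cap-independent initiation and the member of this group with the highest mean count, had 147182, 175039 and 148923 and 95329, 119084 and 101834 at 12 h (log2 fold change −0.58 ± 0.12 SE, adjusted p = 0.00682). Its 48 h values of 139638, 170368 and 152046 in DMSO and 102674, 129738 and 106381 in GSI showed the same gap (log2 fold change −0.45 ± 0.12 SE, adjusted p = 0.0348). The third scaffold, EIF4G3, was not called (−0.29, adjusted p = 0.121 at 12 h, and −0.36, 0.0869 at 48 h, or 0.0296 with the block).

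The cap-binding proteins differed in their calls. EIF4E, which binds the cap, had 14557, 16749 and 16657 in DMSO 12 h and 13346, 15087 and 12574 in GSI 12 h, groups that overlapped (log2 fold change −0.23 ± 0.10 SE, adjusted p = 0.129). At 48 h the values of EIF4E were 12497, 14308 and 15233 and 11770.4, 13899 and 12393 (adjusted p = 0.375). EIF4E2, a paralogue that binds the cap and acts as a repressor, went from 5861, 7281 and 6199 to 4534, 5480.3 and 3808 at 12 h (log2 fold change −0.49 ± 0.15 SE, adjusted p = 0.0325) and from 5582, 6848 and 5647 to 4164, 4921 and 3588 at 48 h (log2 fold change −0.52 ± 0.15 SE, adjusted p = 0.0453). All GSI values of EIF4E2 lay below the DMSO values at both times, but no test compared the paralogues. EIF4E3 had 17 reads in all libraries together and did not pass the minimum.

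Among the eIF4A helicases the exon junction protein moved and the classical helicases were not called. EIF4A3, a core component of the exon junction complex, had 20182, 21826 and 19296 in DMSO 12 h against 13387, 17211 and 12576 in GSI 12 h (log2 fold change −0.52 ± 0.13 SE, adjusted p = 0.0133), and 19006, 19229 and 17678 against 11777, 15789 and 12712 at 48 h (log2 fold change −0.48 ± 0.13 SE, adjusted p = 0.0332). EIF4A2 had 50871, 76099.5 and 66408 in DMSO 12 h and 56557, 53621 and 55153 in GSI 12 h, and 46657, 63030.5 and 57404 and 49887, 51772 and 49204 at 48 h, with overlapping groups (adjusted p = 0.281 and 0.516). EIF4A1 had 1700.1, 1333 and 1575 and 1299, 1127 and 1151 at 12 h (log2 fold change −0.36 ± 0.13 SE, adjusted p = 0.0657) and 1322, 1000.1 and 1012 and 1077, 1012 and 978 at 48 h (adjusted p = 0.605). Its values are uncertain, since 48.6% of its annotated exon length is shared with other genes (the readthrough gene SENP3-EIF4A1 among them), and reads there may not have been assigned to it. The helicase cofactors EIF4B (0.13 and 0.22) and EIF4H (−0.01 and −0.10) were not called.

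The genes that bind and restrain eIF4E did not move together. EIF4EBP2, the member of this group with the highest mean, had 28404, 29524 and 28078 in DMSO 12 h and 25753, 28443 and 22920.5 in GSI 12 h, and 29909, 32303 and 30455 and 28131, 32001 and 28084 at 48 h, all overlapping (adjusted p = 0.201 and 0.61). EIF4EBP1, the best known mTORC1-regulated repressor of eIF4E, had 1273, 2213 and 1915 in DMSO 12 h and 2217, 2322 and 7899 in GSI 12 h. GSI 12 h library 3 was far above the other 2 libraries of its group, and the difference was not called (log2 fold change 0.97 ± 0.42 SE, adjusted p = 0.114). At 48 h the values of EIF4EBP1 were 979.7, 1476 and 1484 and 1508, 1545 and 3091 (adjusted p = 0.373), again with library 3 the highest and with no overlap. EIF4EBP3 had 20.3, 27.0 and 19.4 and 33.0, 45.6 and 51.0 at 12 h (log2 fold change 0.92 ± 0.31 SE, adjusted p = 0.0502), just outside the threshold, and 20.6, 13.0 and 19.1 and 22.9, 16.3 and 31.9 at 48 h. It rests on few reads, and 73.4% of its exon length is shared with the readthrough gene ANKHD1-EIF4EBP3. EIF4ENIF1, which carries eIF4E into the nucleus, was the 1 called member at 12 h (log2 fold change −0.28 ± 0.08 SE, adjusted p = 0.031).

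**Figure D4:**
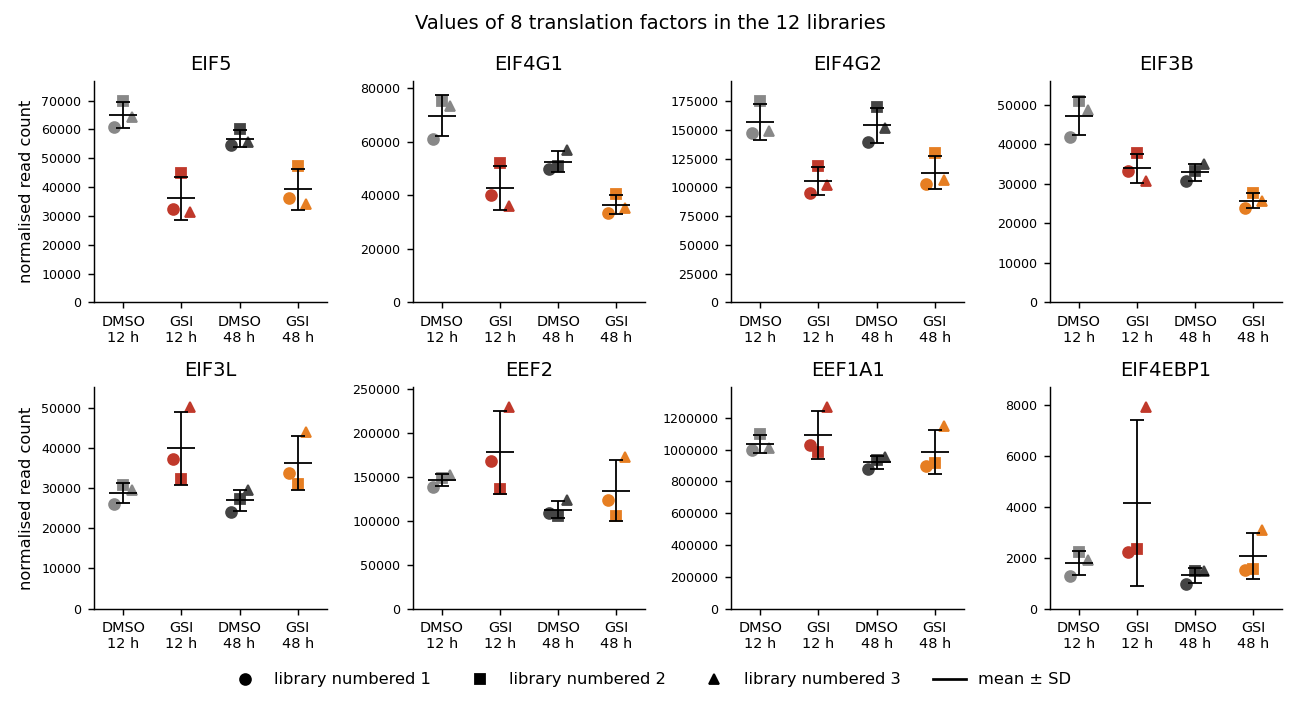
Normalised read counts (y axis, starting at 0) of 8 factors in the 12 libraries, by group (x axis), with the library number as the marker and mean ± SD as lines (n = 3 per group). EIF5, EIF4G1, EIF4G2 and EIF3B are lower in all GSI than in all DMSO libraries of the same time, EIF3L is higher in all, EEF2 and EEF1A1 overlap at both times, and EIF4EBP1 is highest in GSI library 3 at each time.

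Of the 14 genes of eIF3, the scaffold that holds the small subunit ready for initiation, 5 fell at 12 h and 2 at 48 h. The shares of all genes called lower were 11.4% and 5.35%, and 2 of 14 is not far from the latter. EIF3A, the largest core subunit and the one with the highest mean count, had 71295, 73869.6 and 73108 in DMSO 12 h and 51849, 59697 and 54406 in GSI 12 h (log2 fold change −0.40 ± 0.08 SE, adjusted p = 0.00545). At 48 h EIF3A had 59116, 59931 and 63175 and 46394, 51964 and 50934 (log2 fold change −0.29 ± 0.08 SE, adjusted p = 0.0365), so neither pair of groups overlapped. The other core subunit, EIF3B (ENSG00000106263), went from 41884, 50912 and 48767 to 33219.6, 37781 and 30741 at 12 h (log2 fold change −0.48 ± 0.10 SE, adjusted p = 0.00777) and from 30667, 33185 and 34988 to 23959.6, 27750.1 and 25641 at 48 h (log2 fold change −0.35 ± 0.10 SE, adjusted p = 0.0449). EIF3J, the loosely attached subunit, fell by 0.69 (log2; adjusted p = 0.00801), EIF3C by 0.46 (0.0186) and EIF3G by 0.34 (0.026) at 12 h. At 48 h these had −0.48, −0.33 and −0.29 and were not called, but they fell with the block (block adjusted p = 0.00416, 0.00994 and 0.00554). Reads of EIF3C and its near-identical copy EIF3CL (−0.44 at 12 h) may have been split between them, so both values are uncertain.

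Other subunits of the same complex had positive values. EIF3L had 25998, 30801 and 29564 in DMSO 12 h and 37193, 32373 and 50139 in GSI 12 h, with all GSI libraries above all DMSO libraries (log2 fold change 0.45 ± 0.16 SE, adjusted p = 0.0567). At 48 h EIF3L had 24141, 27403 and 29424 and 33730.3, 31061 and 43916, again without overlap (log2 fold change 0.41 ± 0.16 SE, adjusted p = 0.102, or 0.0215 with the block). Neither difference passed the threshold, and 51.8% of the EIF3L exon length is shared with other annotated genes. The values of EIF3E were 0.31 and 0.33, those of EIF3H 0.23 and 0.21, those of EIF3F 0.11 and 0.14 and those of EIF3M 0.07 and 0.05. EIF3D, EIF3I and EIF3K had small negative values, from −0.27 to −0.17, and were not called at either time. Fold changes of the 14 genes spanned from −0.69 (EIF3J) to 0.45 (EIF3L) at 12 h.

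The eIF2 genes, whose product carries the initiator tRNA, split in the same way. EIF2S1, the alpha subunit that stress kinases phosphorylate, fell at 12 h (log2 fold change −0.58 ± 0.11 SE, adjusted p = 0.00598) and 48 h (log2 fold change −0.47 ± 0.11 SE, adjusted p = 0.0277). EIF2S2, the beta subunit and the highest of the 3 by mean count, had 18542, 23379 and 24409 in DMSO 12 h and 21163, 22516 and 33402 in GSI 12 h, and 16036, 20188 and 21095 and 15053, 18435 and 22395 at 48 h. Its groups overlapped at both times (0.20 and −0.05; adjusted p = 0.467 and 0.895), as did those of EIF2S3, the gamma subunit (0.09 and 0.03).

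Of the 5 genes of eIF2B, the complex that reloads eIF2 with GTP, 4 fell at 12 h, beside 11.4% of all genes. EIF2B5, the catalytic subunit and the highest of the 5 by mean count (per kilobase EIF2B1 is higher), had 11957, 14565 and 12888 in DMSO 12 h and 11191, 11352 and 9208 in GSI 12 h (log2 fold change −0.31 ± 0.10 SE, adjusted p = 0.0433). The others were EIF2B3 (−0.61), EIF2B4 (−0.43) and EIF2B1 (−0.41), while EIF2B2 was not called (−0.14, adjusted p = 0.389). At 48 h EIF2B5 had 10238, 11496 and 10883 and 10059.6, 9959 and 9060.0, and none of the 5 was called. All 5 values were negative then, from −0.51 to −0.16, and with the block EIF2B1, EIF2B3 and EIF2B4 fell (block adjusted p = 0.00202, 0.0185 and 0.023).

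Among the 4 kinases that phosphorylate eIF2 alpha and so shut initiation down, only EIF2AK2 was called, at both times. With only 4 genes, 1 call is not far from the 11.4% and 5.35% of all genes called lower. EIF2AK2, the kinase PKR that senses double-stranded RNA, had 12480.1, 14105 and 13184 in DMSO 12 h and 10591, 11045 and 9440.0 in GSI 12 h (log2 fold change −0.36 ± 0.09 SE, adjusted p = 0.0165), and 11135, 12351 and 11627 and 9309, 10338 and 8689 at 48 h (log2 fold change −0.31 ± 0.09 SE, adjusted p = 0.0481). EIF2AK1, the haem-regulated kinase, had 28991, 34212 and 34546 and 28726, 32270.5 and 31087 at 12 h and 28035, 32737 and 34609 and 27752, 31889.8 and 32505 at 48 h, a spread of 1.25 times over all libraries. EIF2AK3, the PERK kinase of endoplasmic reticulum stress, had 2788, 2820.4 and 2513 and 2612, 2608 and 3300.2, then 3327, 3513 and 3314 and 2903, 3223 and 3529. EIF2AK4, the GCN2 kinase that senses uncharged tRNA, had 5549, 5294 and 5376 and 6604, 7015 and 4874, then 5615, 5110.5 and 5641 and 5919, 5648 and 5014. The treatment groups of these 3 kinases overlapped at each time, and none of the 3 was called.

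EIF5A encodes the factor that carries hypusine and frees stalled ribosomes. It had 40605, 43298 and 41825 in DMSO 12 h and 25498, 36265 and 18051 in GSI 12 h (log2 fold change −0.71 ± 0.20 SE, adjusted p = 0.0225), without overlap. GSI 12 h library 2 was closest to the DMSO values and library 3 the lowest. At 48 h EIF5A had 30644, 29355 and 32750.2 and 18844, 26928 and 19294, also without overlap (log2 fold change −0.53 ± 0.20 SE, adjusted p = 0.0948, or 0.0426 with the block). Its paralogue EIF5A2 had 1731, 1685 and 1406 and 1336, 1535 and 1245 at 12 h and 1578, 1628 and 1385 and 1323, 1571 and 1219.6 at 48 h, groups that overlapped (adjusted p = 0.219 and 0.415). EIF5AL1, a near-identical copy that may share reads with EIF5A, had −0.47 and −0.72, was called at neither time and fell at 48 h with the block (block adjusted p = 0.0239).

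Among the eEF1 genes, the tRNA carrier itself was not called at either time. EEF1A1 (ENSG00000156508) had 996056, 1100780.0 and 1008020.0 in DMSO 12 h and 1030300.0, 986881 and 1266350.0 in GSI 12 h (log2 fold change 0.07 ± 0.12 SE, adjusted p = 0.685), and 875762, 934154 and 955653 and 899867, 913962 and 1146500.0 at 48 h (log2 fold change 0.09 ± 0.12 SE, adjusted p = 0.638). GSI library 3 was the highest of its group at each time, the groups overlapped, and EEF1A1 alone took 0.88% to 1.24% of all reads. EEF1A2, the muscle and neuron isoform, had only 9.73, 53.0 and 12.4 and 26.2, 27.8 and 13.4 at 12 h, and 12.7, 42.9 and 15.7 and 44.6, 55.7 and 50.5 at 48 h. The 48 h groups did not overlap, but the difference passed the threshold only with the block (log2 fold change 1.24 ± 0.57 SE, adjusted p = 0.161; block adjusted p = 0.0474). Of the exchange factor genes, EEF1D fell at 12 h (log2 fold change −0.41 ± 0.11 SE, adjusted p = 0.0199) and EEF1B2 did not (0.03, adjusted p = 0.898). EEF1D shares 34.0% of its exon length with other genes, mostly on the opposite strand. EEF1E1, a scaffold protein of the multisynthetase complex, fell at 12 h (log2 fold change −0.50 ± 0.16 SE, adjusted p = 0.0409) and lay at −0.54 at 48 h (0.0502, or 0.00172 with the block). EEF1G, the gamma subunit, had 13 reads in all libraries together, and 99.9% of its annotated exon length is shared with another gene, so no value of it is given.

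None of the 6 genes of eEF2 and the modifiers of elongation factors was called at 12 or 48 h. Of all genes, 21.5% and 9.68% were called at these times. With only 6 genes, having none called is not far from these shares. With the block 1 of the 6 fell at 12 h, where 3773 of the 19281 genes fell. EEF2, the translocase, had 137891, 148278 and 151896 in DMSO 12 h and 167817, 136126 and 228702 in GSI 12 h (log2 fold change 0.25 ± 0.18 SE, adjusted p = 0.344). At 48 h its values were 108337, 105221 and 123040.0 and 123553, 105223 and 172233 (log2 fold change 0.22 ± 0.18 SE, adjusted p = 0.428). GSI library 3 was again the highest and library 2 the lowest of the GSI libraries, and the groups overlapped. EEF2K, the kinase that switches eEF2 off, had 0.09 and 0.25, and lay higher in all GSI than in all DMSO libraries at 48 h (adjusted p = 0.148). The methyltransferase genes ranged from EEF2KMT (−0.62 at 12 h, adjusted p = 0.069, with 29.3% of its exon length shared with other genes) to EEF1AKMT3 (0.34 at 48 h, 0.106, or 0.0408 with the block).

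Levels between genes were compared as the mean normalised read count over the 12 libraries per kilobase of annotated exon. EEF1A1 led with 169700, 4.8 times EEF2 (35350), and EIF4H (22046), EEF1B2 (18990.2), EIF4G2 (15292) and EIF3I (13267) followed. Within pairs of paralogues, EEF1A1 stood 27400 times above EEF1A2 (6.19), and EIF5A (10760) stood 40.9 times above EIF5A2 (262.9). EIF2AK1 (5666), the kinase with the highest level of the 4, stood 12.0 times above EIF2AK4 (471.5), the lowest. The smaller ratios were 2.73 for EIF4A2 over EIF4A3, 1.82 for EIF4EBP2 over EIF4EBP1 and 1.35 for EIF4E over EIF4E2. The scale is rough, because it uses the union of all annotated exons and leaves overlapping reads out of account. The highest library was 1.21 to 8.06 times the lowest across the 63 members (median 1.78), with EIF4EBP1 at the upper end. Of the 5 symbol matches that did not pass the minimum, EEF1E1-BLOC1S5 had 0 reads, and EIF2S3B and EIF4E1B had 1 each, beside EEF1G and EIF4E3 given above.

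Between the time labels the factors mostly had lower values at 48 h, with few calls. In DMSO-labelled libraries 57 of the 63 had a negative value (median −0.20, against 0.00 over all genes), and 1 was called, where 4.53% of all genes were called, 2.51% as lower and 2.03% as higher. That member was EIF3B, which had 41884, 50912 and 48767 at 12 h and 30667, 33185 and 34988 at 48 h (log2 fold change −0.52 ± 0.10 SE, adjusted p = 0.0113). The call was lost without DMSO 12 h library 2, without DMSO 12 h library 3 and without DMSO 48 h library 1. An unadjusted p under 0.05 was reached by 21. With no overlap, 28 factors were lower and 2 higher at 48 h, against 13.1% and 11.2% of all genes, and the 2 higher were EIF4EBP2 and EIF2AK3. The same-numbered libraries deviated together here, and with the block 13 fell and 0 rose, 5 of them subunits of eIF3. With this block 1344 of the 19281 genes fell and 1024 rose. Without both GSI libraries numbered 2, which changes only the shared spread, 5 fell, where 677 of all genes fell and 482 rose. The NOTCH1 target genes differ strongly between the same groups, as given above, and the part of that difference in these values was not tested.

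In GSI-labelled libraries 55 of the 63 had a negative value between 12 and 48 h (median −0.15), and EIF3B was again the 1 member called, where 3.98% of all genes were called, 2.37% as lower and 1.62% as higher. Its values were 33219.6, 37781 and 30741 at 12 h and 23959.6, 27750.1 and 25641 at 48 h (log2 fold change −0.39 ± 0.10 SE, adjusted p = 0.0475). This call is the weaker of the 2, since it was lost without both GSI libraries numbered 2 (adjusted p = 0.13) and on leaving out any single library other than DMSO 12 h library 1 and GSI 12 h library 3. An unadjusted p under 0.05 was reached by 12 factors. With no overlap, 13 were lower and 1 (EEF1A2) higher, against 9.91% and 9.94% of all genes. With the block 7 fell and 0 rose, namely EIF3B, EIF3D, EIF3G, EIF2D, EIF2S2, EEF1B2 and EEF1E1, where 1145 of the 19281 genes fell and 796 rose. The GSI 12 h libraries also enter the treatment comparison, so the values of the 2 comparisons are not independent.

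The difference of the treatment effect between 48 and 12 h was tested directly, because more factors were called at 12 h. No factor was called, as was no gene of all 19281 (limma; 0 factors and 875 genes at an unadjusted p under 0.05). DESeq2 on the recovered reads called 62 genes and 0 factors. With the library number as a block within each treatment, 1177 genes and 1 factor, EIF5, were called. Its fall was smaller at 48 h by 0.31 on the log2 scale (block adjusted p = 0.00632), and it was not called without the block. The median difference of the factors was 0.04. A treatment effect that differs between the times was not detectable for the other members.

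A list of 28 other genes of the pathway (termination and recycling factors, mTORC1 and its targets, and enzymes that modify eIF5A and eEF2) had 26 genes that passed the minimum. At 12 h 8 of these fell and 3 rose, beside 11.4% and 10.1% of all genes, so the share that rose was near the background. Those with the smallest p were DPH2, an enzyme of diphthamide synthesis on eEF2 (log2 fold change −0.56 ± 0.09 SE, adjusted p = 0.00319), and LARP1, a repressor that binds TOP messages (log2 fold change −0.53 ± 0.09 SE, adjusted p = 0.0033). The others that fell were ABCE1, the recycling factor (−0.75), DOHH, which completes hypusine on eIF5A (−0.83), the termination factors GSPT1 (−0.64) and ETF1 (−0.53), GCN1 (−0.47), which activates EIF2AK4, and DENR (−0.39). The rises were those of the eIF4E kinases MKNK2 (1.40) and MKNK1 (0.36) and of PAIP2 (0.35), which binds the poly-A binding protein. At 48 h 5 fell and 0 rose, beside 5.35% and 4.33% of all genes, led by ABCE1 (log2 fold change −0.64 ± 0.13 SE, adjusted p = 0.0143) and DOHH (log2 fold change −0.71 ± 0.16 SE, adjusted p = 0.0207), and ETF1, RPTOR and DPH2 followed. With the block 12 fell and 2 rose at 48 h, where 2989 of the 19281 genes fell and 2272 rose. Between 48 and 12 h, 7 of the 26 fell in DMSO-labelled and 2 (RPTOR and PELO) in GSI-labelled libraries, and 0 rose in either. Of all genes, 2.51% fell and 2.03% rose in DMSO-labelled and 2.37% and 1.62% in GSI-labelled libraries. The 0 rises among 26 genes are thus near the background.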

How the data were processed

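Poly-A RNA of CUTLL1 cells was sequenced in 12 libraries, 3 for each of 4 groups given by the labels. The deposited values are a signal, the authors' read counts per gene scaled by a size factor per library, for 62069 Ensembl identifiers. The submitters' processing notes name TopHat2 (2.0.10), HTSeq (0.6.1), FastQC (0.10.1), DESeq2 without a version, and the build hg19. What each tool did, the annotation and the strand setting of the counting were not found in these notes. Whole reads were recovered by dividing by the smallest step, and 100% of the values came out whole within 0.01. Genes that overlap, lie antisense to each other or have near-identical copies are uncertain, since it is unknown how their reads were assigned.

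Genes with a value of at least 10 in 3 libraries were tested with limma 3.58.1 (R 4.3.3, trended prior) on log2(value + 1) with a mean per group over all libraries. Fold changes are on that scale, on which a gene with few reads shows less than its true change, and p-values were adjusted by Benjamini-Hochberg. The fit was tested on simulated reads. Alternatives were pseudocounts of 0.1 and 10, a filter of 50 and none, upper-quartile and TMM scaling, edgeR 4.0.16 and DESeq2 1.42.0 on the recovered reads, only the groups compared, the library number as a block, and libraries left out. The number pairs libraries by the rule that every same-number correlation of deviations exceeds 0.1 between DMSO 48 h and GSI 48 h (0.103 to 0.157), the DMSO groups (0.545 to 0.612) and the GSI groups (0.40 to 0.545), but not between DMSO 12 h and GSI 12 h (0.068 to 0.272). The block fitted 1 effect per number over all 12 libraries, the 12 h groups included, except in the difference of the treatment effect. The labels do not say what the number marks.

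Symbols came from a table of gene names (18259 of the 19281 genes tested), and biotypes, exon lengths and exon overlaps from GENCODE 29, which is on a later build and gives no coordinates here. Members, lists, motifs and the rule for naming genes were chosen with earlier results of these data known. Library values are given for, in each comparison, the 3 largest called falls and rises without overlap, the highest member of each role, and fixed paralogue sets, with EIF3L added after its values were seen. Other members are named with their fold change, and of the pathway list the 2 called genes of smallest p per treatment comparison were taken by rule and the others after their values were seen.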

Additional observations from a re-analysis of the deposited data

How the results depend on the processing

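The 24 calls at 12 h were recomputed under 23 alternatives each. Of those 552 values 478 were still called and 0 changed sign, and at 48 h this held for 160 of 253. The number of factors called at 12 h ranged from 9 to 27 when single libraries were left out and from 19 to 35 otherwise, with 35 for the replicate block (30 lower, 5 higher). Over all 19281 genes the replicate block called 3773 as lower and 3178 as higher at 12 h. At 48 h the number of 11 became 2 with no filter on low values, 6 with upper-quartile scaling (5 lower, 1 higher), 17 with only the groups compared, 19 with DESeq2, 29 with the replicate block and 23 without both GSI libraries numbered 2, and ranged from 0 to 21 without single libraries. Between 48 and 12 h in DMSO, the 1 call became 2 with the filter of 50, with upper-quartile scaling, with TMM scaling and with edgeR, 4 with only the groups compared, 5 without both GSI libraries numbered 2, 6 with DESeq2 and 13 with the replicate block, and ranged from 0 to 3 without single libraries. Between 48 and 12 h in GSI, the 1 call became 0 with no filter, with only the groups compared and without both GSI libraries numbered 2, 3 with DESeq2 and 7 with the replicate block, and ranged from 0 to 1 without single libraries. For the difference between the effects the 0 calls became 1 with the replicate block within treatment. With the block 1 of the 12 members with a pyrimidine start, EIF3K, was also called lower at 12 h. The cause of these shifts was not tested. A fit on fewer libraries has fewer degrees of freedom, and the part of this in the shifts was not tested either. The block changed no call from called to not called among the 24 and the 11. EIF4EBP3 and EEF1A2 had no more than 51.0 and 55.7 normalised reads in any library, so their fold changes rest on few reads. EEF1A2 also varied with the library number. It had 53.0 and 42.9 in the DMSO libraries numbered 2 and 9.73 to 15.7 in the other DMSO libraries.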

Other observations

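Of 3 long non-coding transcripts that start back to back with a factor gene, only EIF3J-DT was called opposite to its called gene, at 12 h. EIF3J-DT, which is transcribed away from EIF3J, had 805, 688 and 815 in DMSO 12 h and 1019, 1136 and 892 in GSI 12 h (limma, log2 fold change 0.40 ± 0.13 SE, adjusted p = 0.049), while EIF3J fell (−0.69). EIF2AK3-DT, divergent to the PERK kinase gene, had 161, 88.9 and 169.7 and 213, 225 and 240.4 (limma, log2 fold change 0.74 ± 0.23 SE, adjusted p = 0.0379), while EIF2AK3 was not called (0.06). EIF5-DT had 111, 53.0 and 169 and 144, 147 and 188, groups that overlapped (limma, log2 fold change 0.66 ± 0.38 SE, adjusted p = 0.234), beside the fall of EIF5 (−0.86). At 48 h all 3 had positive values (0.27, 0.46 and 0.57) and none was called. From 12 to 48 h EIF2AK3-DT and EIF2AK3 both had positive values, in DMSO (0.46 and 0.32) and in GSI (0.18 and 0.18). The pairs of EIF3J and EIF5 had opposite signs in both, and none of these time differences was called. The strand setting of the counting is not known here, so reads of the gene and its divergent partner may not be separated where they overlap. These 3 transcripts were chosen after seeing the data.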
